A study of Mus musculus with 36 samples.

Results

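Phosphatidylcholine and phosphatidylethanolamine are the main phospholipids of cell membranes. The liver makes both, and it also packs phosphatidylcholine into lipoproteins and bile. In the Kennedy pathway a kinase puts a phosphate on choline or ethanolamine, a cytidyl transferase activates the product, and a phosphotransferase joins it to diacylglycerol. In hepatocytes phosphatidylcholine is also made from phosphatidylethanolamine by methylation. Breakdown of phosphatidylcholine yields glycerophosphocholine, from which a phosphodiesterase frees choline for another round.

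The genes described here are 10 enzymes of this pathway: the choline kinases Chka and Chkb, the ethanolamine kinases Etnk1 and Etnk2, the cytidyl transferases Pcyt1a and Pcyt2, the phosphotransferases Chpt1 and Cept1, the methyltransferase Pemt, and Gpcpd1, the glycerophosphocholine phosphodiesterase that the array files call Prei4. They were chosen by name, with earlier results of these arrays known, in particular the difference between HF-Q and HF and the relation to Arntl in those mice. That difference and that relation are therefore given as descriptions. All 10 genes were measured, out of 13042 gene symbols with a value, by 24 of the 21781 probes in the processed table. A 25th member probe on the array, for Etnk1, is not among these, and was well above background on 23 of 36 arrays in Cy5 and on 1 in Cy3. Probes of a gene are numbered from the brightest, and probe 1 stands for its gene unless another is named.

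Livers came from 36 male adult mice in 3 groups of 12, labelled C57BL/6J and called C57BL/6JOlaHsd, for the HF and HF-Q mice, in the study's methods. All mice ate a mild-high-fat diet with 30 energy % fat during an adaptation phase, of 3 weeks in the sample descriptions and shorter in the study's methods. The t=0 mice were killed at its end, the HF mice after 12 more weeks on the diet, and the HF-Q mice after 12 more weeks on the diet with 0.33% (w/w) quercetin, a plant flavonol. The mice were fasted for at least 2 h before killing, and no clock time of killing is given in the sources used here. Time on the diet and age cannot be told apart in a comparison with t=0. The levels are log2 values of a mouse's Cy5 signal normalised against a Cy3 pool of all mice, so a difference of 1 is a 2-fold difference. Levels of different probes were not compared with each other. In whole liver, fewer cells of a type and less RNA per cell cannot be told apart.

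On the array of HF-Q replicate 2, 96.7% of spots were well above background in Cy5, against 56.4% to 67.4% on the other arrays. The 12 arrays of each group lay on 9 slides of 4, and each slide held all 3 groups. All 24 member probes were well above background in Cy5 on all 36 arrays, and none was saturated. In Cy3, Chka probe 4 was well above background on 33 arrays and the other 23 probes on all 36. Of the hepatocyte markers 4 of 5 had a probe, and their mean log2 level was 16.64 to 17.38 in t=0, 16.82 to 17.29 in HF and 16.69 to 17.47 in HF-Q.

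The promoters of the choline kinases are shown because the values of these paralogues, and their relation to the clock gene Arntl, are set side by side below. The sequences are from RefSeq on build GRCm38.p6. They run 5′ to 3′ on the strand of the gene, with 250 bases before the annotated start in lower case and 50 bases from the start on in capitals. The Chka window is chr19:3851523-3851822 on the plus strand, with 68.7% G or C. The Chkb window is chr15:89429878-89430177 on the minus strand, with 51.7% G or C.
Chka: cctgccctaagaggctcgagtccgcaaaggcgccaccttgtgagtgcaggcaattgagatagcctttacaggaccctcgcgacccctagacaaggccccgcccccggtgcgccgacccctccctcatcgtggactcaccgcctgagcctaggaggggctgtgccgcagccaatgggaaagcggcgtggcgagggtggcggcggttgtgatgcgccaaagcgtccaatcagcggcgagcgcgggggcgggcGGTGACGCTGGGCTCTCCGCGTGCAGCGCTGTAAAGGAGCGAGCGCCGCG
Chkb: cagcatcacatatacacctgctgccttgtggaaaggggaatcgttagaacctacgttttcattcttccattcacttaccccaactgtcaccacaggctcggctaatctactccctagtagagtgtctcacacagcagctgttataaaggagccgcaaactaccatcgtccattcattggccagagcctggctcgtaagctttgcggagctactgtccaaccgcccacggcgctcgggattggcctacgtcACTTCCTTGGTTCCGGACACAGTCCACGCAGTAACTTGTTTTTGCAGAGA
Motifs that clock factors and clock output factors are known to use were searched on both strands. The E-box CACGTG was in 7.15% of 32851 promoter windows of 300 bases, the D-box TTACGTAA in 0.119%, its variant TTATGTAA in 0.938% and the ROR element core TAGGTCA in 2.61%. The 13 windows listed for 8 of the 10 genes held none of these letters. The table has no entry for Gpcpd1 or Pcyt2.

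The first comparison asked how the liver levels of these genes after 12 more weeks on the mild-high-fat diet differed from those at t=0. Gpcpd1 was 3.46 times lower in HF than in t=0, Chka was higher at 3 of its 4 probes, and Etnk1, Etnk2, Chpt1 and Pcyt1a were each lower at 1 of their probes. Of the 24 member probes, 11 passed (limma, Benjamini-Hochberg adjustment over all 21781 probes, adjusted p under 0.05), 3 higher and 8 lower. They belong to 6 of the 10 genes, of which 3 passed at probe 1 (Gpcpd1, Etnk1 and Etnk2). Probes of a gene are not independent of each other. Over all probes the test called 21.3%, with 10.9% higher and 10.4% lower, and with median centring of the scanner values 85.0% of the calls were higher, in place of 51.3%. The median difference of the member probes was -0.06, against -0.005 over all probes. The HF mice are also those of the comparison with which the genes were chosen, so this test is not independent of the choice.

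**Figure D1:**
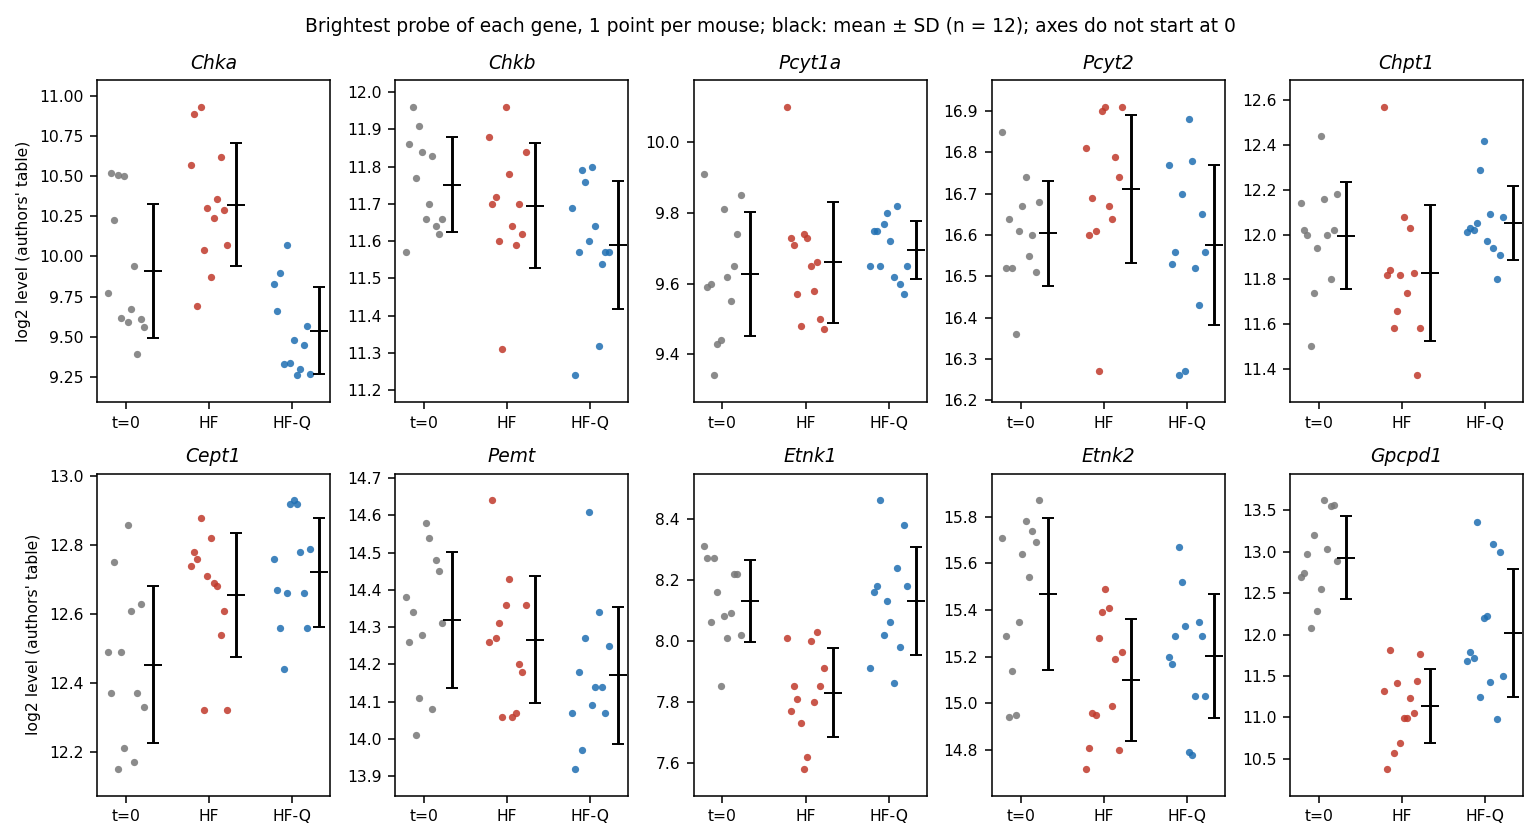
Log2 level of the brightest probe of each of the 10 genes, 1 point per mouse, in t=0, HF and HF-Q, with the mean and SD of 12 mice in black and a separate vertical scale in each panel. For Gpcpd1 the HF mice (10.38 to 11.82) lie below all t=0 mice (12.08 to 13.62), while the groups overlap in the other panels.

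Gpcpd1 frees choline from glycerophosphocholine. Its level at probe 1 (mm8 chr2:132256048-132256107) was 12.08 at the lowest, 12.93 at the median and 13.62 at the highest in t=0. In HF the corresponding values were 10.38, 11.14 and 11.82, so that all 12 HF mice lay below all 12 t=0 mice. The difference was -1.79 ± 0.18 (SE, n = 12 and 12; limma, adjusted p = 2.01e-07). The other 3 probes differed by -1.72, -1.69 and -1.51, with adjusted p of at most 1.39e-06 (limma), and at each of them 11 of 12 HF mice lay below all t=0 mice. In size of difference the probes ranked 1, 2, 3 and 7 among all 21781. Within slides the difference at probe 1 was below 0 on 9 of 9, from -2.63 to -0.65. All 4 probes kept an adjusted p under 0.05 in each of the 12 alternative settings, with differences between -1.87 and -1.35.

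Chka, which opens the choline branch, was higher in HF at probes 2, 3 and 4. Its level at probe 1 (mm8 chr19:3871843-3871902) was 9.39 at the lowest, 9.72 at the median and 10.52 at the highest in t=0, and 9.69, 10.30 and 10.93 in HF. The groups overlapped, with 4 HF mice above all t=0 mice and 6 t=0 mice below all HF mice. The difference of 0.41 ± 0.15 did not pass (limma, adjusted p = 0.0505), and it passed in 5 of 12 alternative settings, among them without the dimmest 25% of probes. At probe 2 (mm8 chr19:3893815-3893874) the t=0 mice had 8.75 at the lowest, 9.69 at the median and 10.59 at the highest, and the HF mice 9.90, 10.43 and 10.88. All 12 HF mice were above the t=0 median there, and the difference was 0.70 ± 0.18 (limma, adjusted p = 0.00609), a factor of 1.62. Probes 3 and 4 differed by 0.41 (limma, adjusted p = 0.0254) and 0.37 (limma, adjusted p = 0.032). Probe 3 did not pass with slide as a fixed block (0.38), nor probe 4 with the methods' t-test, and with the Feature Extraction signals, from which background is subtracted, they differed by 0.64 and 0.89. Within the group means the 4 probes varied together over the 36 mice, with r of 0.64 to 0.83 between them. The t=0 mice differed by replicate number. At probe 2 the median was 10.08 in t=0 replicates 1 to 6 and 9.21 in replicates 7 to 12. The HF mice had 10.31 and 10.43 there. At probe 1 these medians were 10.37 and 9.60 in t=0, and 10.44 and 10.26 in HF. What part this split has in the differences from t=0 was not tested.

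Chkb, the other choline kinase, had at probe 1 11.57, 11.73 and 11.96 at the lowest, the median and the highest in t=0 and 11.31, 11.70 and 11.96 in HF. These ranges overlapped almost completely. The difference was -0.05, with a 95% confidence interval of -0.18 to 0.07, and probe 2 gave -0.10 with an interval of -0.23 to 0.03. Neither passed. The 2 Chkb probes varied together with r of 0.77.

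The ethanolamine kinases start the ethanolamine branch. Etnk1 probe 1 had 7.85, 8.13 and 8.31 at the lowest, the median and the highest in t=0 and 7.58, 7.83 and 8.03 in HF. No HF mouse reached the t=0 median, and 9 of 12 t=0 mice were above all HF mice. Its difference was -0.30 ± 0.06 (limma, adjusted p = 0.000757), while Etnk1 probe 2 differed by -0.07 and did not pass. Etnk2 probe 1 had 14.94, 15.59 and 15.87 in t=0 and 14.72, 15.09 and 15.49 in HF. Here too no HF mouse reached the t=0 median, and the difference was -0.37 ± 0.11 (limma, adjusted p = 0.0207). Etnk2 probe 2 differed by -0.01 and did not pass. The probes of each kinase varied together only weakly (r of 0.41 for Etnk1 and 0.30 for Etnk2), so neither change is seen by every probe of its gene. With median centring of the scanner values neither probe 1 passed, and with slide as a fixed block Etnk2 did not. Nor did Etnk2 probe 1 pass with Arntl as a covariate, a fit added after the data were seen (-0.19, limma, adjusted p = 0.187). Its t=0 levels were 14.94 to 15.71 in replicates 1 to 6 and 15.54 to 15.87 in replicates 7 to 12. What part this split has in the difference was not tested.

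The cytidyl transferases carry out the step that is held to set the pace of the pathway. Pcyt1a, the choline form, had at probe 2 a lowest level of 8.68, a median of 8.86 and a highest of 9.14 in t=0, and 7.94, 8.56 and 8.72 in HF. There 11 of 12 HF mice lay below all t=0 mice, and the difference was -0.37 ± 0.07 (limma, adjusted p = 0.000624). The brighter probe 1 differed by 0.03, with an interval of -0.11 to 0.18, and the correlation of the 2 probes over the 36 mice was -0.34. The Pcyt1a probes thus do not report one level. Pcyt2, the ethanolamine form, differed by 0.11 and 0.02 at its probes, and neither passed.

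The phosphotransferases join the activated head group to diacylglycerol. Chpt1, which uses CDP-choline, differed by -0.17 at probe 1, -0.56 at probe 2 and -0.19 at probe 3. The 3 probes varied together with r of 0.60 to 0.78. Probes 1 and 3 did not pass, but did in 1 and 5 of 12 alternative settings. Within slides they were lower on 7 and 8 of 9. Probe 2 passed (limma, adjusted p = 0.00114), with 9.63, 10.04 and 10.58 at the lowest, the median and the highest in t=0 and 9.14, 9.52 and 10.25 in HF. Within slides that probe was lower on 9 of 9, and with median centring of the scanner values it did not pass (-0.44). Cept1, which uses CDP-choline and CDP-ethanolamine, differed by 0.20 (limma, adjusted p = 0.0769). Pemt, the methyltransferase of the hepatocyte route, differed by -0.05 at each of its probes, with the widest interval from -0.22 to 0.11, and neither passed.

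HF-Q against t=0 asked the same of the mice that ate quercetin. Gpcpd1 was again lower, 1.88 times at probe 1, and Cept1 was higher, while no probe of the other 8 genes passed. Of the 24 member probes 5 passed, 1 higher and 4 lower. The 4 lower were all of Gpcpd1, so the calls belong to 2 of the 10 genes, each called at probe 1. Over all probes the test called 11.9%, with 6.62% higher and 5.3% lower. The member median was -0.15, against 0.014 over all probes. With the Feature Extraction signals, 34.4% of all calls were higher, in place of 55.5%. These differences share the t=0 mice with those of HF. The HF-Q mice also belong to the comparison with which the genes were chosen, so this test too is not independent of the choice.

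**Figure D2:**
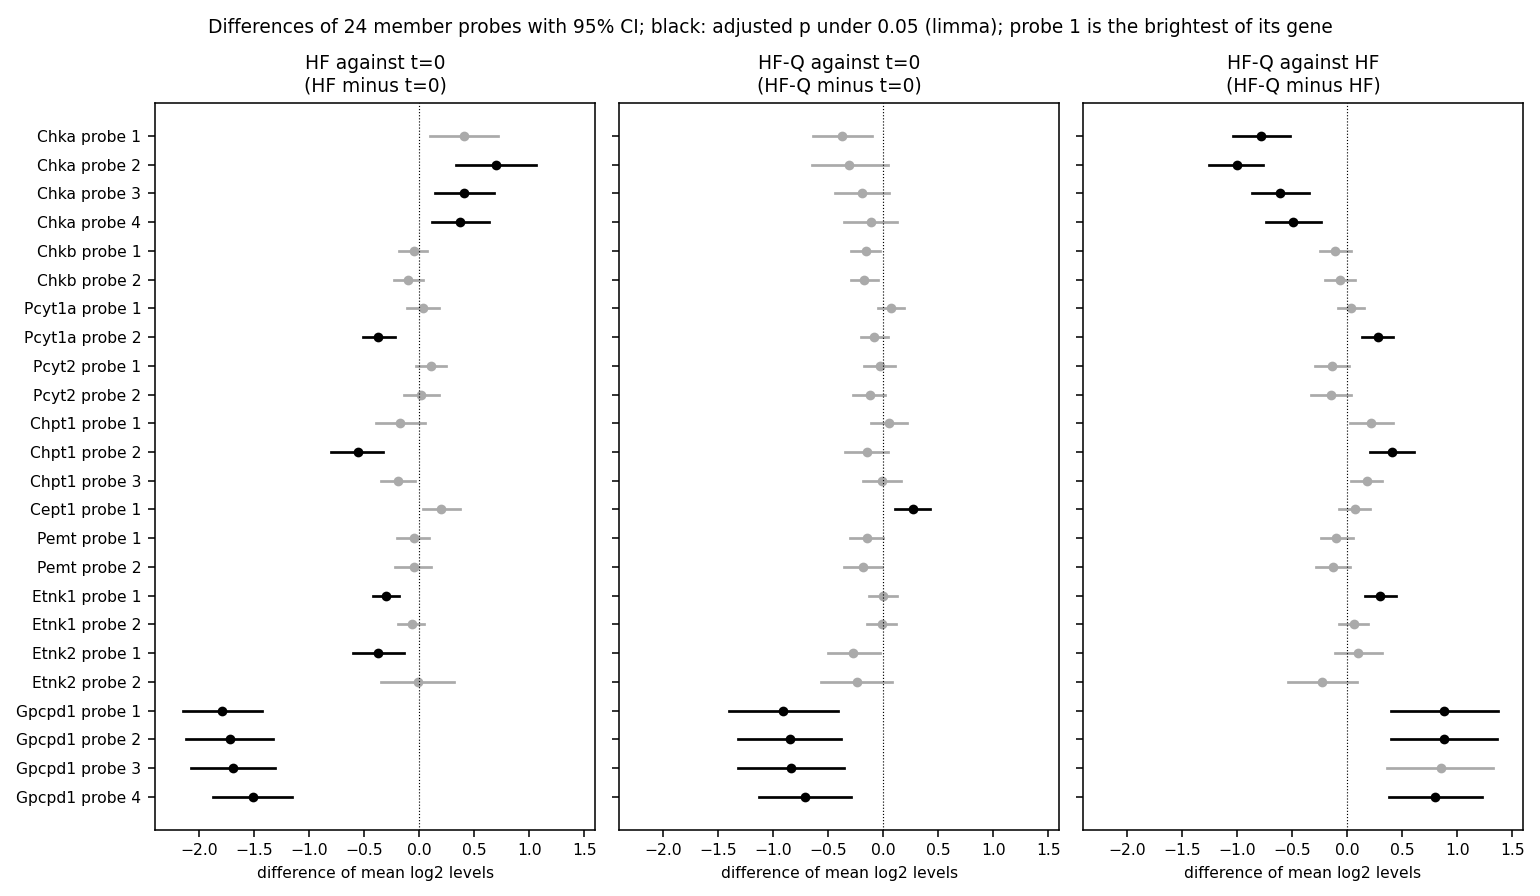
Difference of mean log2 levels with its 95% confidence interval for the 24 member probes, for HF minus t=0, HF-Q minus t=0 and HF-Q minus HF; black marks an adjusted p under 0.05 (limma). The 4 Gpcpd1 probes lie between -1.79 and -1.51 in the left panel, and the 4 Chka probes between 0.37 and 0.70 there and between -1.00 and -0.49 in the right panel.

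Gpcpd1 in HF-Q had 10.98 at the lowest, 11.75 at the median and 13.36 at the highest, so that the group overlapped t=0 and HF. Its SD of 0.77 compares with 0.50 in t=0 and 0.45 in HF. The difference from t=0 was -0.91 ± 0.24 (limma, adjusted p = 0.0145), and 7 of 12 HF-Q mice lay below all t=0 mice. The other 3 probes differed by -0.85, -0.84 and -0.71, with adjusted p of 0.0165 to 0.0236 (limma). All 4 lost the call in 1 of 13 alternative settings, median centring of the scanner values. Cept1 had 12.15, 12.43 and 12.86 at the lowest, the median and the highest in t=0 and 12.44, 12.71 and 12.93 in HF-Q. All 12 HF-Q mice were above the t=0 median, and the difference was 0.27 ± 0.08 (limma, adjusted p = 0.0252). This call too was lost with that median centring (0.37).

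For Chka the 4 HF-Q differences from t=0 were -0.37, -0.31, -0.19 and -0.11, and none passed. The interval at probe 1 was -0.64 to -0.10 (limma, adjusted p = 0.0683), and at probe 2 it was -0.65 to 0.04. The Chkb differences were -0.16 and -0.17, with adjusted p of 0.0935 and 0.0627 (limma). Chkb probe 2 did pass in 4 of 13 alternative settings, and within slides it was lower on 9 of 9. Chkb probe 1 passed in 0 of 13 and was lower on 7 of 9. Pcyt1a, Pcyt2, Chpt1 and Etnk1 differed by at most 0.15 in size at any probe. Pemt (-0.15 and -0.18) and Etnk2 (-0.27 and -0.24) did not pass either. On the scanner values with loess, though, Pemt probe 1 (limma, adjusted p = 0.0296) and probe 2 (limma, adjusted p = 0.041) and Etnk2 probe 1 (limma, adjusted p = 0.0491) did.

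The difference between HF-Q and HF is a description, since the genes were chosen with it known. Chka was lower in HF-Q at all its probes. At probe 2 the HF-Q mice had 8.92 at the lowest, 9.29 at the median and 9.87 at the highest, so that all 12 lay below the lowest HF mouse. The difference there was -1.00, with a 95% interval of -1.25 to -0.76, and the other probes gave -0.78, -0.61 and -0.49. With the Feature Extraction signals probes 3 and 4 gave -0.95 and -1.23. Gpcpd1 was higher in HF-Q by 0.80 to 0.88 at its 4 probes, with an interval of 0.40 to 1.37 at probe 1. Within slides probe 1 was higher on 6 of 9, from -0.65 to 1.79, and the other probes on 7 of 9, and the call at probe 1 held in 6 of 13 alternative settings. Chpt1 probe 2 (0.41), Etnk1 probe 1 (0.30) and Pcyt1a probe 2 (0.28) were also higher, with intervals above 0, and Chpt1 probes 1 and 3 gave 0.22 and 0.18. Chkb, Pcyt2, Cept1, Pemt and Etnk2 had intervals that included 0 at every probe, from -0.54 at the lowest to 0.32 at the highest. The test called 10 member probes, 6 higher and 4 lower, where it called 2.36% of all probes, 1.49% higher and 0.863% lower. Those 10 probes belong to 5 of the 10 genes, of which 3 were called at probe 1 (Chka, Etnk1 and Gpcpd1). With median centring of the scanner values, 32.5% of all calls were higher, in place of 63.4%.

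The other measure is the relation to Arntl, the gene of the core clock factor BMAL1, within each group. Arntl was measured by 1 probe. It had 7.10 at the lowest, 8.11 at the median and 9.45 at the highest in t=0, 7.80, 8.98 and 9.23 in HF, and 6.90, 7.81 and 8.61 in HF-Q. The t=0 mice spanned 2.35 on this scale, with a largest gap between neighbours of 0.65, and those numbered 1 to 6 had 8.06 to 9.45 against 7.10 to 8.20 in those numbered 7 to 12. What the numbers stand for is not given in the sources used here. The relation was tested in t=0 alone, since the choice of genes did not use the relation to Arntl in these mice. Other earlier results of these arrays were known when the genes were chosen.

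In t=0, Chka rose with Arntl at all 4 probes in the fit on Arntl alone. At probe 2, r was 0.96 and Spearman's rho 0.98 over 12 mice (permutation test, 100000 resamples, two-sided, p = 1e-05 for each, the smallest these resamples can give). The slope was 0.70 ± 0.06 log2 units of Chka per log2 unit of Arntl (limma, adjusted p = 1.85e-05), which ranked 5 by p among 21780 probes. At probe 1, r was 0.85 and rho 0.87 (permutation p = 0.00084 and 0.00043), with a slope of 0.45 ± 0.08 (limma, adjusted p = 0.011). Probes 3 and 4 had r of 0.90 and 0.94, with adjusted p of 0.00379 and 0.00119 for the slope (limma). Without the 2 mice farthest from the median of Arntl, r was 0.87, 0.94, 0.88 and 0.95 at probes 1 to 4.

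Above the widest gap in Arntl lay 4 t=0 mice, and 8 lay below it. At Chka probe 1 these mice had 10.23 to 10.52 and 9.39 to 9.94, without overlap. Among the 8 mice below the gap, r was 0.33 at probe 1 (rho 0.71), 0.94 at probe 2, 0.70 at probe 3 and 0.82 at probe 4. At probe 1, r among these 8 mice was thus below the 0.85 over all 12, over a narrower range of Arntl (7.10 to 8.20). What part that range has in the lower r was not tested.

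Chka was split by replicate number in t=0 as Arntl was. At probe 2 the mice numbered 1 to 6 had 9.67 to 10.59 and those numbered 7 to 12 had 8.75 to 9.71, and at probe 3 these ranges were 7.92 to 8.48 and 7.41 to 7.88. The tests above treat the 12 mice as exchangeable. Within the mice numbered 1 to 6, r was 0.82, 0.88, 0.80 and 0.89 at probes 1 to 4, and within those numbered 7 to 12 it was 0.26, 0.95, 0.51 and 0.82. With this split as a covariate, added after the data were seen, the slopes were 0.42, 0.60, 0.26 and 0.39. None of the 24 member probes then passed (limma, 4 at an unadjusted p under 0.05), with an adjusted p of 0.118 at Chka probe 2, and 4 of all 21780 probes did.

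**Figure D3:**
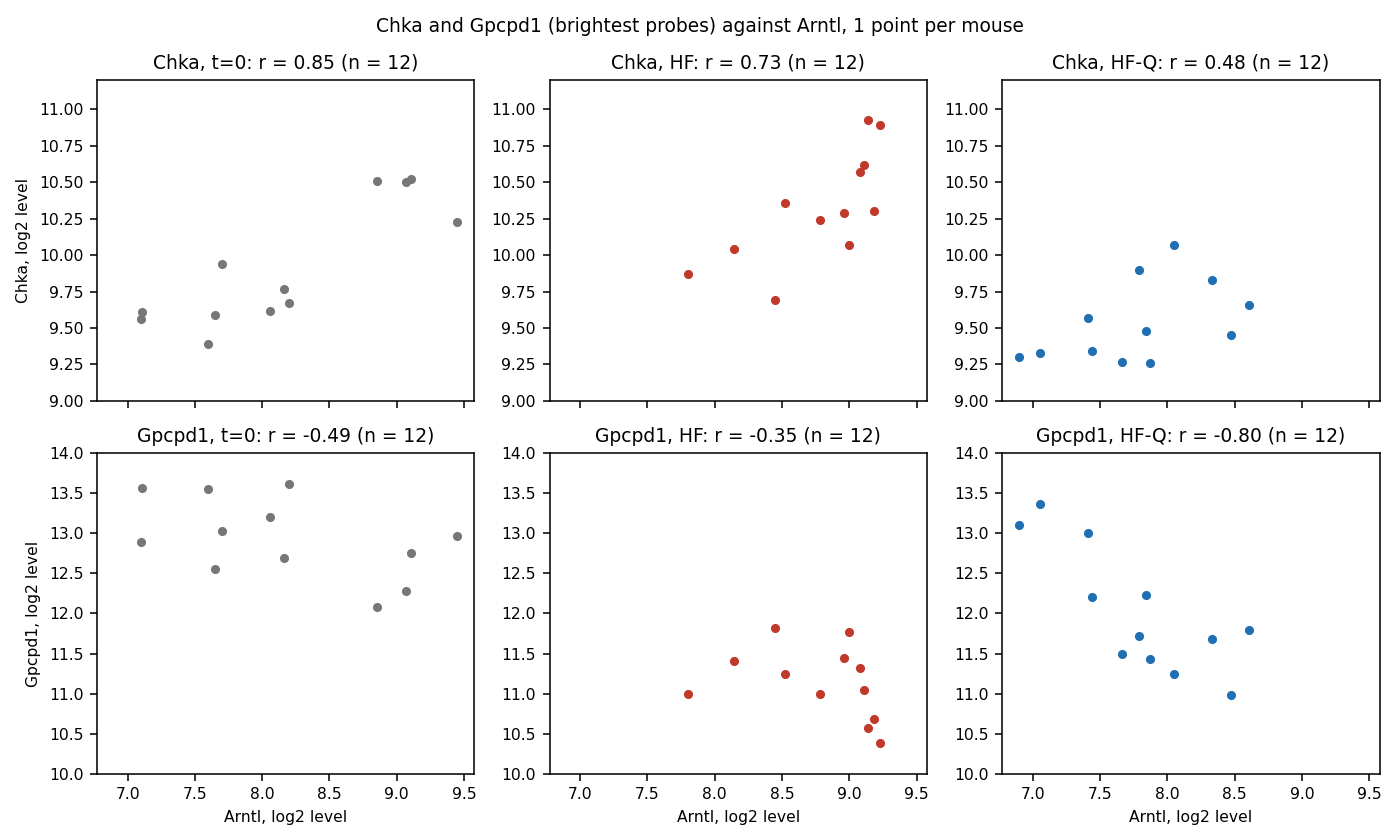
Log2 level of Chka (top) and Gpcpd1 (bottom), probe 1 of each, against that of Arntl, 1 point per mouse, in t=0, HF and HF-Q. For Chka, r was 0.85 in t=0, 0.73 in HF and 0.48 in HF-Q, and for Gpcpd1 it was -0.49, -0.35 and -0.80. For Chka the 95% confidence interval of r included 0 in HF-Q (-0.13 to 0.83). For Gpcpd1 it included 0 in t=0 (-0.83 to 0.12) and in HF (-0.77 to 0.28). These r were not tested against each other.

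No other member passed for the slope in t=0. Of 9 other clock genes with a probe, 7 passed, Clock with a positive slope (0.38) and 6 with negative slopes down to -1.57 for Usp2. The 4 called probes, all of Chka and all positive, compare with 0.836% of all probes called, 0.367% positive and 0.468% negative. The nearest was Etnk2 probe 1, with r of -0.72 and rho of -0.66 (permutation p = 0.01 and 0.0222), a slope of -0.30 ± 0.08 and an adjusted p of 0.129 (limma). Without the 2 farthest mice its r was -0.54. It was -0.30 within the mice numbered 1 to 6 and -0.22 within those numbered 7 to 12. With that split as a covariate the slope was -0.12. Both Chkb probes had positive slopes, 0.11 and 0.12, with r of 0.68 and 0.70 (permutation p = 0.0194 and 0.00881) and adjusted p of 0.51 and 0.443 (limma). Their r was 0.51 and 0.60 within the mice numbered 1 to 6, and 0.44 and 0.22 within those numbered 7 to 12. The 4 Gpcpd1 probes had r of -0.57 to -0.49 (permutation p = 0.0551 to 0.108) and did not pass. Among the 8 t=0 mice below the widest gap in Arntl, r was -0.05 at Gpcpd1 probe 1 and -0.70 to -0.60 at its other probes. Within the mice numbered 1 to 6, r was -0.27 at probe 1 and 0.08 to 0.27 at the others. Within those numbered 7 to 12 it was 0.20 at probe 1 and -0.58 to -0.55 at the others.

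In HF and HF-Q, r is given without a test. Chka had r of 0.73, 0.68, 0.93 and 0.46 at probes 1 to 4 in HF, and 0.48, 0.66, 0.56 and 0.82 in HF-Q. Without HF-Q replicate 2, probe 2 had 0.87. Gpcpd1 had -0.35 to -0.06 in HF, or -0.61 to -0.37 without the 2 mice farthest from the median of Arntl, and -0.81 to -0.71 in HF-Q, and on the scanner values with loess -0.56 to -0.50 in HF-Q. Etnk1 probe 1 had 0.38 in HF and -0.66 in HF-Q, whereas its probe 2 had 0.31 and 0.07. For Chkb the HF-Q values were -0.11 and 0.03, and without HF-Q replicate 2 they were 0.31 and 0.42. Between Chka and Gpcpd1, probe 1 of each, r was -0.69 and rho -0.48 in t=0 (permutation p = 0.015 and 0.115), -0.72 in HF and -0.35 in HF-Q. The permutation test treats the t=0 mice as exchangeable. Like Chka, Gpcpd1 probe 1 differed there by replicate number, with a median of 12.72 in replicates 1 to 6 and 13.29 in replicates 7 to 12.

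**Figure D4:**
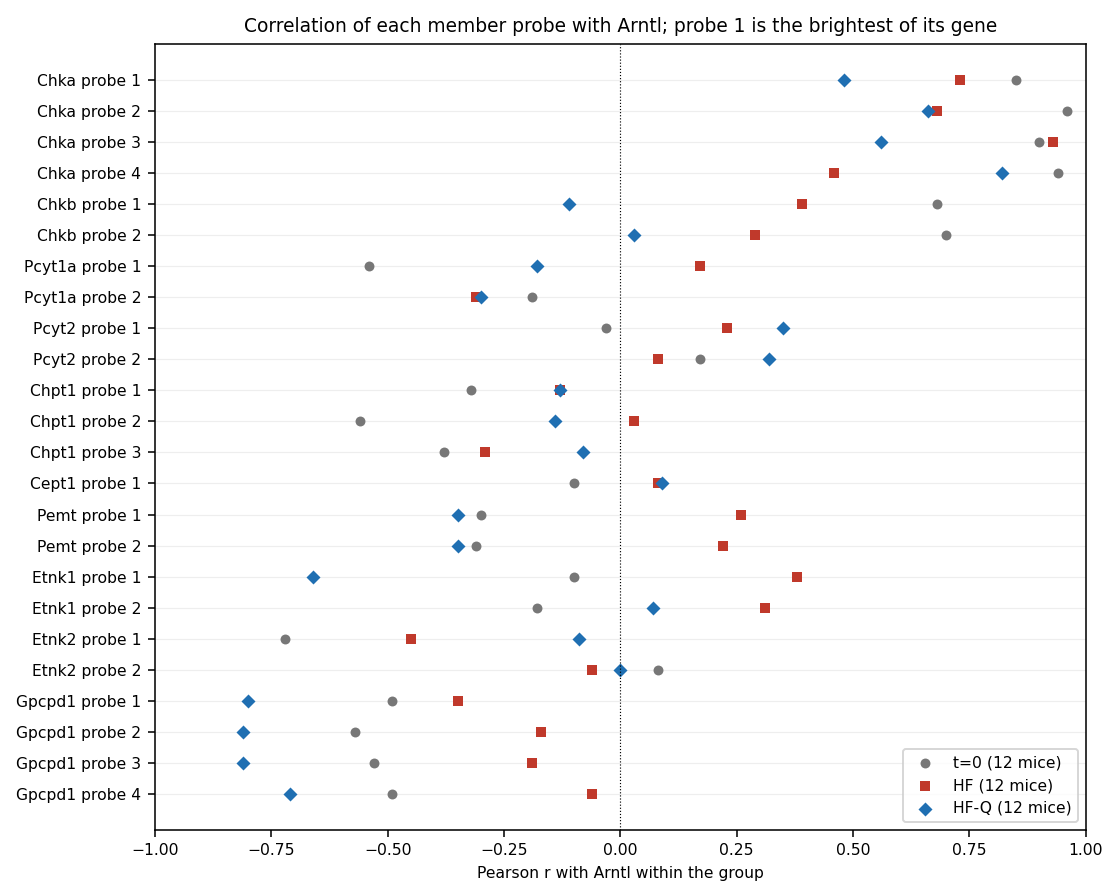
Pearson r with Arntl of each member probe within t=0, HF and HF-Q, 12 mice each. The 4 Chka probes have r of 0.46 to 0.96 in all groups and the 4 Gpcpd1 probes r below 0 in all groups, while most other genes lie on both sides of 0.

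A fit with Arntl as a covariate, added after the data were seen, gives the group differences at an equal Arntl level. It takes the slope on Arntl to be the same in both groups compared, which was not tested. For HF against t=0, Chka probe 2 then differed by 0.30 (limma, adjusted p = 0.0301) and probes 1, 3 and 4 by 0.11 to 0.15, without a call. Gpcpd1 probe 1 differed by -1.60 (limma, adjusted p = 4.01e-06). For HF-Q against t=0, Gpcpd1 probe 1 differed by -1.13 (limma, adjusted p = 0.000959), a larger difference than without the covariate. For HF-Q against HF, Chka probes 1 to 4 differed by -0.39 ± 0.15, -0.59 ± 0.13, -0.12 ± 0.13 and -0.08 ± 0.14 (SE). Without the covariate these were -0.78, -1.00, -0.61 and -0.49. At Gpcpd1 probe 1 the difference was 0.07 ± 0.27, in place of 0.88. In that fit limma called 0 member probes (4 at an unadjusted p under 0.05) and 1 of all 21780 probes. Arntl itself differed by -1.00 between HF-Q and HF, with an interval of -1.38 to -0.61, so the covariate and the diet overlap.

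Among the genes whose levels followed Chka probe 1 most closely over the 36 mice, with each group centred on its mean, were Arntl (r = 0.72), Ddc (0.69), Gldc (0.66) and Gfod2 (0.65). All are correlations across mice that share the reference pool and the array. Within groups, Ddc had r of 0.91 in t=0, 0.71 in HF and 0.34 in HF-Q with Chka.

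Of 40 other genes that supply, oxidise or break down choline and phospholipids, or make other head groups, 35 had a probe. In HF against t=0, 3 were higher and 5 lower, or 22.9%, near the 21.3% of all probes. In HF-Q against t=0 the counts were again 3 and 5, against 11.9% of all probes. Between HF-Q and HF, 1 was higher, the glycerophosphodiester phosphodiesterase Gde1 (0.40), and 2 were lower, the lysophospholipase Pnpla7 (-0.32) and the choline transporter Slc44a1 (-0.29), or 8.57% against 2.36% of all probes. Bhmt, which passes a methyl group from the choline product betaine to homocysteine, differed by -1.00 ± 0.14 in HF (limma, adjusted p = 2.52e-05) and by -1.37 ± 0.20 in HF-Q (limma, adjusted p = 8.38e-05). In HF, Pgs1 of phosphatidylglycerol synthesis (0.42) was higher, and Etnppl, which degrades phosphoethanolamine (-0.38), and Mat1a, which makes the methyl donor of Pemt (-0.36), were lower. In HF-Q, Slc44a3, a choline transporter-like protein (-0.36), Bhmt2 (-0.30) and Dmgdh, a later enzyme of choline oxidation (-0.29), were lower. For the slope on Arntl in t=0, 1 of the 35 passed, the phospholipase Pld1 (0.24, limma, adjusted p = 0.0203).

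Some markers of liver cell types passed in the same comparisons. Over all probes, limma called 21.3% in HF against t=0, 11.9% in HF-Q against t=0 and 2.36% in HF-Q against HF. Of 4 bile duct markers, 3 were higher in HF than in t=0, led by Sox9 (0.64), and the mean level of the list was 7.70 to 8.38 in t=0, 8.18 to 8.90 in HF and 7.94 to 8.37 in HF-Q. Of 3 erythroid markers 2 had a probe. Their mean level was 13.37 to 14.10 in t=0, 13.78 to 14.94 in HF and 13.91 to 14.59 in HF-Q, and Hba-a1 was higher by 0.93 in HF and 1.21 in HF-Q while Alas2 was lower in HF-Q (-0.26). Of the 4 hepatocyte markers, Cyp2e1 was lower in HF (-0.36) and Ttr in HF-Q (-0.33). None of the 5 Kupffer cell markers passed, though all were above t=0, by 0.25 to 0.82 in HF and 0.25 to 0.92 in HF-Q, with means of 11.22 to 13.32, 11.97 to 13.19 and 11.95 to 12.90 in t=0, HF and HF-Q. None of the 4 stellate cell markers passed either, and of 4 endothelial markers Pecam1 was lower in HF (-0.34). Between HF-Q and HF, Sox9 differed by -0.60 (limma, adjusted p = 0.00053) and Pecam1 by 0.38 (limma, adjusted p = 0.00734). The part of these cells in the differences of the member genes was not tested.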

How the data were processed

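Liver RNA of 36 mice was measured on 2-colour Agilent 4×44K arrays, with each mouse in Cy5 and a pool of all mice in Cy3. The authors deposited spot and background intensities quantified with Agilent Feature Extraction (version 10.5.1.1 per the submitters' processing notes) and a processed table of log2 values for 23256 spots. Its values were those of log2 Cy5 minus log2 Cy3 plus the spot's mean log2 Cy3, with each array at the same median (8.96). This was checked against the scanner files: the lowest correlation was 0.9999 and the median absolute difference 0.0192. Background was not subtracted, so differences of dim probes are compressed. Per the study's methods, spots counted as expressed at 2 times the background were log transformed and normalized against Cy3 in GeneMaths XT.

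Spots were averaged per probe (21781 probes). Of 41174 probes on the array, 24375 were named by accession, 8727 by symbol or synonym and 8072 not at all. Groups were compared pairwise with limma 3.58.1 (R 4.3.3; lmFit and eBayes, two-sided, Benjamini-Hochberg over all probes, adjusted p under 0.05). In t=0, each probe was also regressed on Arntl with limma, and r and rho were given permutation p-values (100000 resamples, not adjusted). These were for the 24 member probes with Arntl, and for Chka with Gpcpd1. The rule for named genes was: all probes of the members, Arntl, at most 4 called pathway genes per comparison with t=0, and the 5 genes most like Chka, of which 1 is not reported here. Pld1, Gde1, Pnpla7, Slc44a1, the markers and the clock genes other than Arntl were named after their values were seen. The members and lists were chosen with earlier results of these data known. The code was tested on simulated data. The alternatives were scanner values (normexp, offset 50, with loess or median centring; 1639 control spots and outlier flags left out), Feature Extraction's processed signals, quantile normalization, no dimmest 25% of probes, the methods' t-test, all 36 arrays in one fit, slide or replicate number as blocks, array weights, and leaving out HF-Q replicate 2. A fit with Arntl as a covariate, and for the slope one with replicate numbers 1 to 6 and 7 to 12 apart, were added after the data were seen. The number of arrays limits the precision, and the spread is that between single mice.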

Additional observations from a re-analysis of the deposited data

How the results depend on the processing

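Of the 24 member probes, HF against t=0 called 11, and 8 to 14 under the 12 alternatives run. HF-Q against t=0 called 5, with 8 on the scanner values with loess, 8 with the Feature Extraction signals and 0 with median centring of the scanner values (limma, 5 at an unadjusted p under 0.05). HF-Q against HF called 10, with 4 under that median centring, 6 with the methods' t-test, 4 with slide as a fixed block and 0 with Arntl as a covariate. The slope on Arntl in t=0 called 4, and 3 or 4 in 5 other settings, where leaving out the dimmest 25% of probes drops 1 Chka probe. With replicate numbers 1 to 6 and 7 to 12 set apart by a covariate, chosen after seeing the data, it called 0, and the slopes of Pcyt2 (0.05), Chpt1 (0.04), Cept1 (0.05) and Pemt (0.07) turned positive. Over all probes, that median centring called 396 in HF-Q against t=0 in place of 2596, and 77 in HF-Q against HF in place of 513. The causes were not tested. Without HF-Q replicate 2 the counts were 5 and 8.

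Differences near 0 changed sign. With median centring of the scanner values Chkb (0.07) and Pemt (0.07) in HF against t=0 and Pcyt2 (0.08) in HF-Q against t=0 turned positive, and Pcyt2 was also positive with array weights (0.01). Etnk1 in HF-Q against t=0, at 0.00, became -0.05 with loess, -0.06 with either median centring, -0.02 with quantile normalization, -0.00062 and -0.01 with slide as a random and a fixed block, -0.0026 without HF-Q replicate 2 and -0.03 with Arntl as a covariate. In t=0 the slopes of Pcyt2 (0.07 and 0.04) and Cept1 (0.02 and 0.01) turned positive with loess and with quantile normalization.

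Between mice with the same replicate number, the median r over 12 pairs was 0.061 for HF with t=0 and 0.033 for HF-Q with t=0. For HF-Q with HF it was -0.010. In these 3 comparisons 4, 4 and 3 of the 12 pairs had r over 0.1. With the replicate block the 3 comparisons called 13, 5 and 8 member probes. The analysis with another Arntl probe was not run, since the table has 1.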
